A study of Homo sapiens with 4 samples.

Results

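CircRNAs whose host gene repairs damaged DNA or signals the damage were examined in exosomes of irradiated and non-irradiated pancreatic cancer cells. They were chosen from a list of 58 repair genes: a circRNA was taken if its host gene was on the list, if it was annotated as exonic, intronic or sense overlapping, and if at least 1 read crossed its back-splice junction in the 4 libraries. This gave 37 circRNAs of 22 host genes, out of 9405 circRNAs with a read and out of 3726 host genes of these categories. Group B (irradiated, libraries B1 and B2) came from pancreatic cancer cells given 10 Gy of X-rays to produce dying tumour cells, and group A (control, libraries A1 and A2) from cells without irradiation. The labels of every library list the same 4 pancreatic carcinoma lines, BxPC-3, MIA PaCa-2, PANC-1 and SW1990, so the line or mixture behind a given library is not known. All cells were grown in serum depleted of exosomes, the exosomes were collected from the medium by ultracentrifugation, and ribosomal RNA was removed from their total RNA. Nothing states that replicates were separate cultures, so the p-values measure only the spread between these libraries.

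DNA repair is divided among several routes. End joining ligates the ends of a double-strand break with little processing, whereas homologous recombination resects the ends and copies an intact sister sequence, with BRCA1, PALB2 and BRCA2 among its factors. The Fanconi pathway unhooks crosslinks between DNA strands, excision repair removes damaged or mismatched bases, and the checkpoint kinases ATM and ATR mark breaks and stalled forks and hold the cell cycle. Ionising radiation causes double-strand breaks, for which ATM is the first signalling kinase. A circRNA forms when a downstream splice donor joins an upstream acceptor of the same transcript, and the read that crosses this back-splice junction is the unit counted here. A junction read says that the circle was present and says nothing of the protein or the linear mRNA of the host gene.

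Junctions of exonic members with at least 5 reads, or with reads in both irradiated libraries, are shown first. The junction is the only sequence by which such a circle differs from its linear mRNA. Each run gives the last 20 bases of the circle in lower case and its first 20 bases in capitals, 5′ to 3′ on the strand of the host gene (GRCh37). FANCL hsa_circ_0001009 (chr2:58449077-58459247, minus strand) and RAD18 hsa_circ_0001264 (chr3:8977555-8983488, minus strand) were the members read in both irradiated libraries. The other 8 were added after their values were seen, as the exonic members with at least 5 reads. They lie at BABAM1 (chr19:17387304-17387718, plus strand), BARD1 (chr2:215632206-215646233, minus strand), UIMC1 (chr5:176370336-176385155, minus strand), ATM (chr11:108106397-108119829, plus strand), BRIP1 (chr17:59853762-59857762, minus strand), RAD23B (chr9:110068660-110074018, plus strand), SHPRH (chr6:146209156-146216113, minus strand) and TP53BP1 (chr15:43738585-43739683, minus strand).
FANCL hsa_circ_0001009: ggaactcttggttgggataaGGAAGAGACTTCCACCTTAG
RAD18 hsa_circ_0001264: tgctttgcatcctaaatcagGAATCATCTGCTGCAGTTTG
BABAM1 hsa_circ_0003253: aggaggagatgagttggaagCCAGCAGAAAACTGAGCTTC
BARD1 hsa_circ_0001098: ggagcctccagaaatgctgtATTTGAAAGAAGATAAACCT
UIMC1 hsa_circ_0001558: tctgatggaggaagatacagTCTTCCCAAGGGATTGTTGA
ATM hsa_circ_0000356: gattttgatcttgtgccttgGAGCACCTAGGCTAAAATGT
BRIP1 hsa_circ_0006968: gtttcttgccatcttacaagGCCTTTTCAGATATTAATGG
RAD23B hsa_circ_0087861: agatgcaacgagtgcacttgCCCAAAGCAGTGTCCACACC
SHPRH hsa_circ_0001649: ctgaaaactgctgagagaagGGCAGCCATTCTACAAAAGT
TP53BP1 hsa_circ_0034989: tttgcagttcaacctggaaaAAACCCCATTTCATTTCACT

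The FANCL circle had the most reads of all members and is given whole. It holds exons 2 to 5 of the gene in 278 nt, all of it coding sequence, and the exons are printed in turn in capitals and lower case from the first base after the junction.
FANCL hsa_circ_0001009 circle: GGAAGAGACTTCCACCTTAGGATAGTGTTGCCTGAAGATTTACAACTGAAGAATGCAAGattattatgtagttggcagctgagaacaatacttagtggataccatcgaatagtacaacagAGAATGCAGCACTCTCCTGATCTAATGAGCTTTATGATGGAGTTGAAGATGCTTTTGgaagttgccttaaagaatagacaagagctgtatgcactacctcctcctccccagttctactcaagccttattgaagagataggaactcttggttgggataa

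The libraries differed in depth and in the kind of circRNA they held. Junction reads numbered 15150 (B1) and 5756 (B2) in the irradiated libraries and 6544 (A1) and 8094 (A2) in the control libraries. Exonic circRNAs of all host genes took 10068 reads (66.5%) of irradiated B1 and 2066 reads (35.9%) of irradiated B2, but 3 reads of control A1 and 4 reads of control A2. Mitochondrial junctions took 40 and 72 reads of irradiated B1 and B2, but 1453 and 1225 of control A1 and A2. Of 10 marker genes of pancreatic carcinoma epithelium, EPCAM and TSPAN8 alone had a circRNA read, with 2, 0, 3 and 0 reads over the list in B1, B2, A1 and A2. Of 6 plasma protein genes, C3, a complement protein, had 15 and 5 reads in B1 and B2 and none in the controls. The blood cell list had PTPRC with 2 reads in A2, the fibroblast list COL3A1 with 4 reads in B2, and the exosome protein list CD81 and TSG101 with 4 reads in A1. The part of these differences in the results below was not tested.

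Repair host genes gave more junction reads in the irradiated exosomes than in the control exosomes, and all of their exonic circles were read in the irradiated libraries alone. The members had 101 reads in irradiated B1 and 41 in irradiated B2, and 2 in control A1 and 8 in control A2. As a share of all junction reads this was 0.667% in B1 (95% Wilson interval 0.549% to 0.809%) and 0.712% in B2 (0.526% to 0.965%), against 0.0306% in A1 (0.00838% to 0.111%) and 0.0988% in A2 (0.0501% to 0.195%). The mean was 0.689% ± 0.0323 in irradiated exosomes and 0.0647% ± 0.0483 in control exosomes (SD, n = 2 each). The groups did not overlap and the difference of 0.625 percentage points exceeded the spread within each group. Exonic circRNAs of all host genes did not overlap between the groups either. They took 66.5% (B1) and 35.9% (B2) of junction reads, against 0.0458% (A1) and 0.0494% (A2). No test was run, because the members were chosen with earlier results known. An exact permutation test of 2 libraries against 2 also cannot go below p = 0.333. The intervals cover counting error only, since reads copied by PCR are not independent molecules. In exosomes, fewer copies of a circle and a smaller share of its source cells cannot be told apart.

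**Figure D1:**
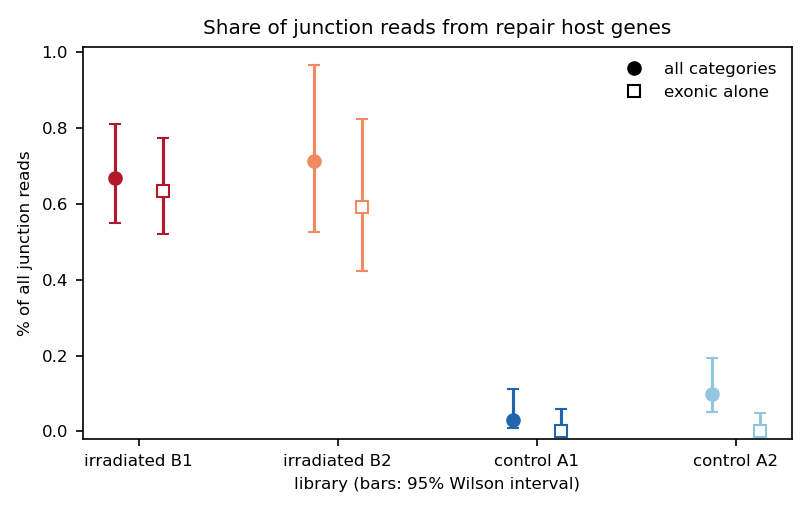
Share of all junction reads that came from repair host genes in each library, in percent, with 95% Wilson intervals; filled circles are all categories and open squares exonic circRNAs alone. Irradiated B1 and B2 lie at 0.667% and 0.712%, above control A1 and A2 at 0.0306% and 0.0988%.

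The category of the circles separated the groups completely. Of the members' reads, 96 of 101 (Wilson interval 88.9% to 97.9%) were exonic in irradiated B1 and 34 of 41 (82.9%, 68.7% to 91.5%) in irradiated B2, but 0 of 2 in control A1 and 0 of 8 in control A2. The 10 control reads were all intronic. Among all other circRNAs of the same categories, mitochondrial junctions included, the exonic share was 78.0% in irradiated B1 and 54.6% in irradiated B2. It was 0.0909% in control A1 and 0.108% in control A2, so the same contrast ran through the rest of the table. All 30 exonic members were read in irradiated libraries alone, as were 2530 of the other 2537 exonic circRNAs (99.7%). Among the 5 intronic members 2 were read in irradiated libraries alone (40%), beside 34.6% of other intronic circRNAs, mitochondrial ones included.

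The exonic members had 130 reads in the irradiated group and 0 in the control group. Set against a floor of 3 counts over the control group and scaled by total junction reads, that is at least 30.3-fold higher. Over all exonic circRNAs the same scaling gave 12134 reads in the irradiated group and 7 in the control group, 1214-fold, so the bound is not particular to repair genes. The same floor of 3 counts allows the exonic members a share of up to 0.0205% of the 14638 control reads. Measured against exonic reads instead, the members took 0.954% (0.782% to 1.16%) in B1 and 1.65% (1.18% to 2.29%) in B2, and with 3 and 4 exonic reads in all, a share of this size was not detectable in either control library.

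Most circles were read in a single library. Of the 37 members, 23 were read in B1, 13 in B2, 1 in A1 and 2 in A2, and 35 were read in 1 library. The 2 circles read in both irradiated libraries made up 8.70% of those in B1 and 15.4% of those in B2, and no member was read in both control libraries or in both groups. For exonic members these shares were 9.52% and 18.2%. Over all exonic circRNAs, 280 were read in both irradiated libraries, 12.9% of those in B1 and 41.9% of those in B2. Of the 30 exonic members 28 were read in 1 library, beside 2283 of all 2567 exonic circRNAs. Of these 2567, 0 were read in both control libraries and 6 in both groups. Host genes overlapped more: 5 member hosts (ATM, FANCL, BARD1, FANCM and RAD18) had reads in both irradiated libraries, which is 5 of 15 in B1 (33.3%) and 5 of 10 in B2 (50%), beside 23.0% and 45.9% for all host genes. At ATM, BARD1 and FANCM the circles read in B1 were other circles than those read in B2.

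**Figure D2:**
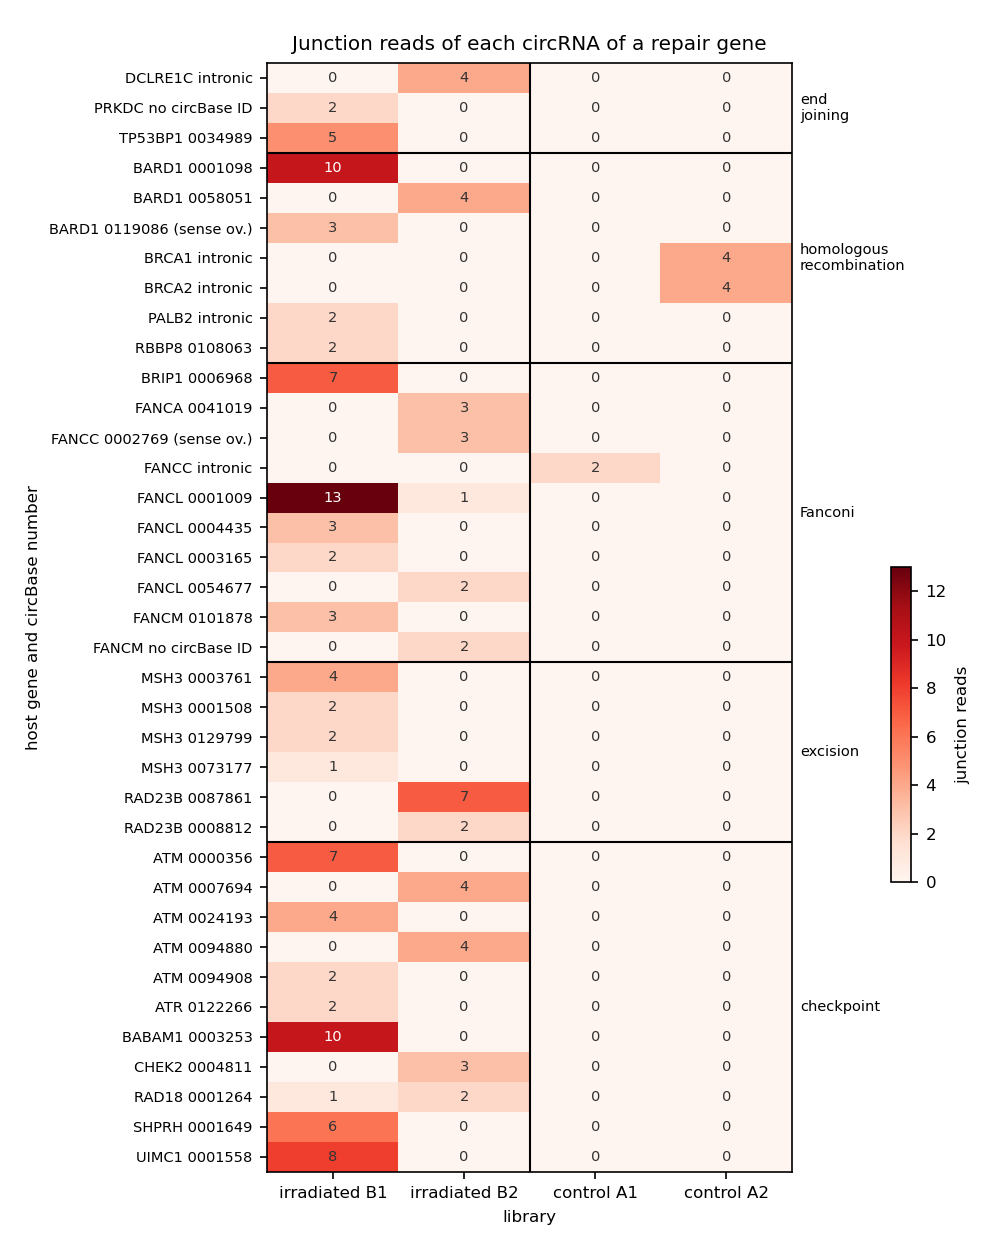
Junction reads of each of the 37 member circRNAs (rows, by repair route and host gene, with the circBase number where there is one) in irradiated B1 and B2 and control A1 and A2. Every circle read in a control library is intronic, at BRCA1, BRCA2 or FANCC, and FANCL 0001009 has the highest value, 13 reads in B1.

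Differential expression was tested in edgeR (quasi-likelihood F test) over the 1957 circRNAs with at least 5 reads, of which 9 were members, all exonic. All 9 had 0 control reads and so passed this filter through the irradiated group alone, also where 1 library was left out below. At the threshold of fold change over 2 with unadjusted p under 0.05, 3.53% of all tested circRNAs were higher in irradiated exosomes and 0 of the 9 members were. At adjusted p under 0.05 the share was 0.102% of all tested circRNAs and 0 of the 9 members, and 0 members had an unadjusted p under 0.05. DESeq2 called 0 members as well, beside 0.153% of all tested circRNAs called higher. FANCL hsa_circ_0001009 had the smallest unadjusted p of the members in edgeR, 0.115, with an adjusted p of 0.549. The fitted common dispersion was 4.18, and the circles of BABAM1 and BARD1, with 10 reads in B1 and 0 in B2, also had an adjusted p of 0.549. Without library B2, 4 of the 8 members then tested passed the unadjusted threshold and 3 passed at adjusted p, beside 21.8% and 11.8% of all circRNAs then tested. Without B1 the 1 member then tested passed both, beside 13.8% of all by either rule.

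Summing reads per host gene gave 12 members among the 1504 host genes with at least 5 reads. At fold change over 2 with unadjusted p under 0.05, 9.44% of all tested hosts were higher in irradiated exosomes, and 3 of the 12 member hosts were (25%): ATM, FANCL and BARD1. At adjusted p under 0.05 the share was 1.20% of all tested hosts and 0 of the 12 members. Both irradiated libraries lay above both control libraries in 26.0% of tested hosts and in 4 of the 12 members, which were ATM, FANCL, BARD1 and FANCM. Of the 12 members, 11 had 0 control reads and so passed the filter on low counts through the irradiated group alone. The 3 host calls did not hold when any 1 of the 4 libraries was left out, but calls also became rarer among all tested hosts. FANCL and BARD1 had under 5 reads without B1 and were not tested there. DESeq2 called 0 of the 12, beside 0.598% of all tested hosts called higher.

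Each listed gene was placed in a route for this description, and the order of the routes by reads depends on that placement. As placed here, the checkpoint genes held the most reads, 40 in B1 and 13 in B2 and 0 in both controls. These came from 11 exonic circles of 7 of the 14 listed genes: ATM, ATR and CHEK2, and also BABAM1, UIMC1, SHPRH and RAD18. ATM, the kinase that double-strand breaks activate, had 13 and 8 reads in B1 and B2 and 0 in A1 and A2, at least 4.90-fold higher, with an adjusted p of 0.192 in edgeR (unadjusted 0.00868). Only 117 of the 3726 host genes (3.14%) had as many reads. Its 5 circles differed between the irradiated libraries. hsa_circ_0000356, exons 6 to 10 and 904 nt, had 7 reads in B1, and hsa_circ_0024193, exons 3 to 5, had 4 reads in B1. hsa_circ_0094880, exons 3 to 9, had 4 reads in B2, as did hsa_circ_0007694, which is exon 18 alone in 172 nt. hsa_circ_0094908, exons 35 to 38, had 2 reads in B1. The 2 circles that begin with exon 3 hold the ATM start codon and are the only exonic members with non-coding bases.

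BABAM1 and UIMC1 encode subunits of the BRCA1-A complex, which reads ubiquitin chains at breaks. The BABAM1 circle hsa_circ_0003253 (exons 7 and 8, 217 nt) had 10 reads in B1 and 0 in B2, A1 and A2, at least 2.33-fold higher over the group. The UIMC1 circle hsa_circ_0001558 (exons 7 to 10, 397 nt) had 8 reads in B1 and 0 in the other 3 libraries. In both cases 1 irradiated library held every read, and the irradiated and control groups overlapped at 0. The adjusted p in edgeR was 0.477 for either host.

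SHPRH and RAD18 are ubiquitin ligases that modify PCNA, the sliding clamp, at stalled forks. The SHPRH circle hsa_circ_0001649 (exons 26 to 29, 440 nt) had 6 reads in B1 and none elsewhere. RAD18 hsa_circ_0001264 (exons 5 to 7, 623 nt) had 1 read in B1 and 2 in B2 and 0 in the controls. It was too rare for the test, although it is 1 of only 2 members seen in both irradiated libraries. CHEK2, a kinase downstream of ATM, had 3 reads of hsa_circ_0004811 (exons 12 to 14) in B2. ATR, the kinase of stalled forks, had 2 reads in B1 of hsa_circ_0122266, the longest exonic member with 12 exons and 1674 nt. The other 7 checkpoint genes on the list had no member circle.

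Fanconi genes had 28 and 11 reads in irradiated B1 and B2 and 2 and 0 in control A1 and A2, from 10 circles of 5 of the 9 listed genes. FANCL, the ubiquitin ligase of the Fanconi core complex, had 18 reads in B1 and 3 in B2 and 0 in both controls, at least 4.90-fold higher, with an adjusted p of 0.309 in edgeR (unadjusted 0.0236). The circle of exons 2 to 5, whose sequence is printed above, had 13 reads in B1 and 1 in B2. The other 3 circles of FANCL reuse its ends. hsa_circ_0004435 and hsa_circ_0003165 (3 and 2 reads, both in B1) start at the same exon 2 and run to exon 7, where they use donor sites that give 444 nt and 459 nt. hsa_circ_0054677 (2 reads in B2) starts at exon 3 and ends with exon 5.

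BRIP1, a helicase that binds BRCA1, had 7 reads of hsa_circ_0006968 (exons 14 and 15, 303 nt) in B1 and none elsewhere. FANCM, the translocase that anchors the core complex on DNA, had 3 reads in B1 of hsa_circ_0101878 (exons 4 to 9) and 2 reads in B2 of a circle without a circBase number (exons 2 to 9). Both FANCM circles end at the same donor, and both controls were at 0. FANCA, a core complex subunit, had 3 reads of hsa_circ_0041019 (exons 27 to 30) in B2. FANCC, another core subunit, was the 1 member host with reads in both groups: 3 reads in B2 of the sense overlapping hsa_circ_0002769, against 2 reads in A1 of an intronic circle. Its adjusted p in edgeR was 0.875, and the values of the groups overlapped.

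Homologous recombination was the route with the most control reads: 17 and 4 in irradiated B1 and B2 and 0 and 8 in control A1 and A2, from 7 circles of 5 of its 20 listed genes. BARD1, the partner of BRCA1 in a ubiquitin ligase, had 13 reads in B1 and 4 in B2 and 0 in both controls, at least 3.97-fold higher, with an adjusted p of 0.410 in edgeR (unadjusted 0.0396). Its circle of exons 4 to 6, hsa_circ_0001098 with 1204 nt, had 10 reads in B1. The circle of exons 2 to 6, hsa_circ_0058051 with 1410 nt, had 4 reads in B2, and both end at the same donor. Another, sense overlapping circle, hsa_circ_0119086, had 3 reads in B1. RBBP8, which starts the resection of broken ends, had 2 reads of hsa_circ_0108063 (exons 15 and 16) in B1, and PALB2, which links BRCA1 to BRCA2, had 2 reads of an intronic circle in B1.

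BRCA1 and BRCA2 were the 2 member hosts of 22 read in the control group alone (9.09%), beside 28.9% of all 3726 host genes. BRCA2, a central factor of strand exchange, had 4 reads of an intronic circle of 766 nt in A2 and 0 in B1, B2 and A1. BRCA1 had 4 reads of an intronic circle of 1196 nt, also in A2 alone. Both were under the 5 reads needed for the test, and each rests on 1 library.

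The ends of 2 of the 3 control circles are shown because they lack the exon ends that the exonic members have. These circles lie in introns of BRCA1 (chr17:41257091-41258286) and FANCC (chr9:98033206-98033425). Each line gives 20 bases on either side of an end on the plus strand of GRCh37, with the bases inside the circle in capitals.
BRCA1 lower end: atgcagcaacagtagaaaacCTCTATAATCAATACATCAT
BRCA1 upper end: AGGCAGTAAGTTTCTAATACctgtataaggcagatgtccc
FANCC lower end: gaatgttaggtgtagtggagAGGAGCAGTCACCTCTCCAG
FANCC upper end: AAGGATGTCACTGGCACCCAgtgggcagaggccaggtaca

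At BRCA1 the 20 bases before the lower end and the last 20 bases of the circle were identical at 12 positions, and the run of identical bases at the break was 4. For FANCC the same comparison gave 2 of 20 positions and a run of 0. The longest run among members was 11 bases, at the intronic DCLRE1C circle. The exonic members had a median run of 2 bases (0 to 4), and the 5 intronic members a median of 4 (0 to 11), beside medians of 2 and 5 for all nuclear exonic and intronic circRNAs with a read. The AG and GT bases that flank a spliced exon lay on the listed strand for all 30 exonic members. For 3 of the 5 intronic members (BRCA2, FANCC and DCLRE1C) they lay on the other strand, as they did for 826 of 1869 nuclear intronic circRNAs. The BRCA1 junction was listed on both strands, with 4 reads on the strand of the gene and 3 on the other, all in A2. What these features say of how the circles arose was not tested.

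Excision repair genes had 9 reads in B1 and 9 in B2 and 0 in both controls, from 6 exonic circles of 2 of the 6 listed genes. The 2 hosts were read in different libraries. MSH3, a mismatch repair protein that binds loops of unpaired bases, had all 9 of its reads in B1, spread over 4 circles: hsa_circ_0003761 (exons 9 to 12) had 4 reads, hsa_circ_0129799 and hsa_circ_0001508 had 2 each, and hsa_circ_0073177 had 1. The last 3 are built from 2 acceptors and 2 donors between exons 14 and 20. RAD23B, a partner of the damage sensor XPC, had 9 reads, all in B2: 7 of hsa_circ_0087861 (exons 4 and 5, 325 nt) and 2 of hsa_circ_0008812 (exons 2 to 5). For either gene the irradiated and control groups overlapped at 0, and the adjusted p in edgeR was 0.477 for both.

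End joining was the route with the fewest reads, 7 and 4 in B1 and B2 and 0 in both controls, from 3 of its 9 listed genes. TP53BP1, which shields broken ends from resection, had 5 reads of hsa_circ_0034989 (exons 13 and 14, 324 nt) in B1 and 0 in the other 3 libraries, with an adjusted p of 0.577 in edgeR for the host. DCLRE1C, the Artemis nuclease that trims ends, had 4 reads of an intronic circle in B2. PRKDC, the catalytic subunit of the DNA-dependent kinase, had 2 reads in B1 of a circle of exons 78 and 79.

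**Figure D3:**
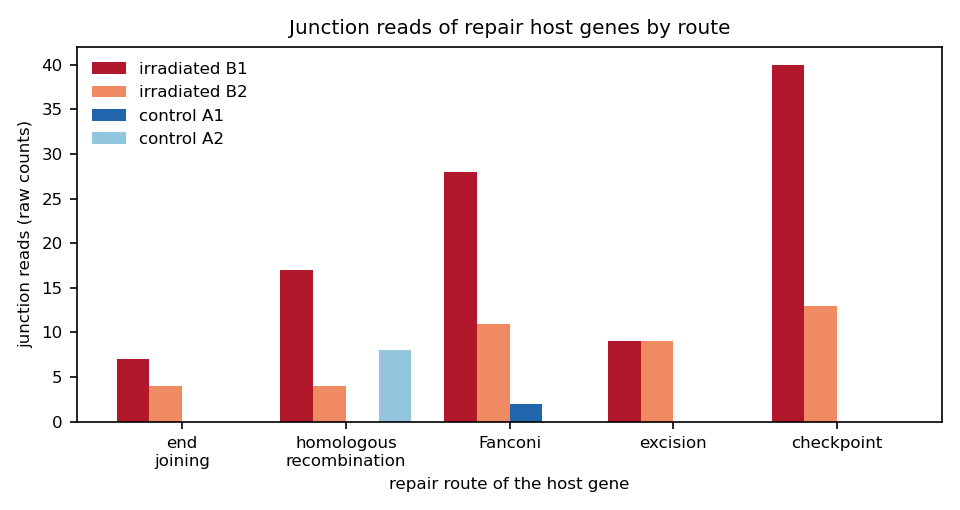
Junction reads, as raw counts, of the member circRNAs summed by repair route for irradiated B1 and B2 and control A1 and A2. Checkpoint genes have the tallest bars (40 and 13 reads in B1 and B2), and control bars appear at homologous recombination (8 reads in A2) and Fanconi (2 reads in A1).

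By share of the members' reads, checkpoint genes took 39.6% in B1 and 31.7% in B2, and Fanconi genes 27.7% and 26.8%. Excision genes took 8.91% in B1 and 22.0% in B2, which came from MSH3 in B1 and RAD23B in B2. The routes hold different numbers of genes of different length, so these shares are not levels per gene. Of the 36 listed genes without a member circle, 29 had no row in the table, 3 (ERCC4, RAD17 and RAD52) had a row with no read in the 4 libraries, and 4 (BLM, NHEJ1, RAD50 and RNF168) had antisense circRNAs with reads, which the choice of members leaves out. Those with no row include the ligase LIG3, placed here in excision repair, and LIG4, XRCC4 and XRCC5 of end joining. XRCC2 and XRCC3 of homologous recombination also had no row.

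The exonic members were built from internal coding exons. All 30 had both ends at annotated exon ends of 1 transcript, and 99.6% of the other exonic circRNAs had both ends at annotated exon ends. The summed length of the exons between equalled the predicted length for all 30 members, but transcripts with that length were preferred. None held the first or the last exon of its transcript, and 28 consisted of coding sequence alone. The number of exons was 1 in 1 circle, 2 to 4 in 19, and 5 to 12 in 10. The spliced length ran from 172 to 1674 nt with a median of 442 nt, beside 452 nt for the other 2537 exonic circRNAs. In length and annotation the members resembled the rest of the exonic circRNAs, with 93.3% of them listed in circBase, beside 86.5% of the others.

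Hosts with several circles reused splice sites. Of the 17 hosts with an exonic circle, 6 had more than 1, with 19 circles among them, and 15 of these 19 shared an end with another circle of the same gene. FANCL used 1 acceptor in 3 of its 4 circles. A position shared by circles of a gene also means that they are not independent items, so the 37 members stand for fewer separate choices of splice sites.

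**Figure D4:**
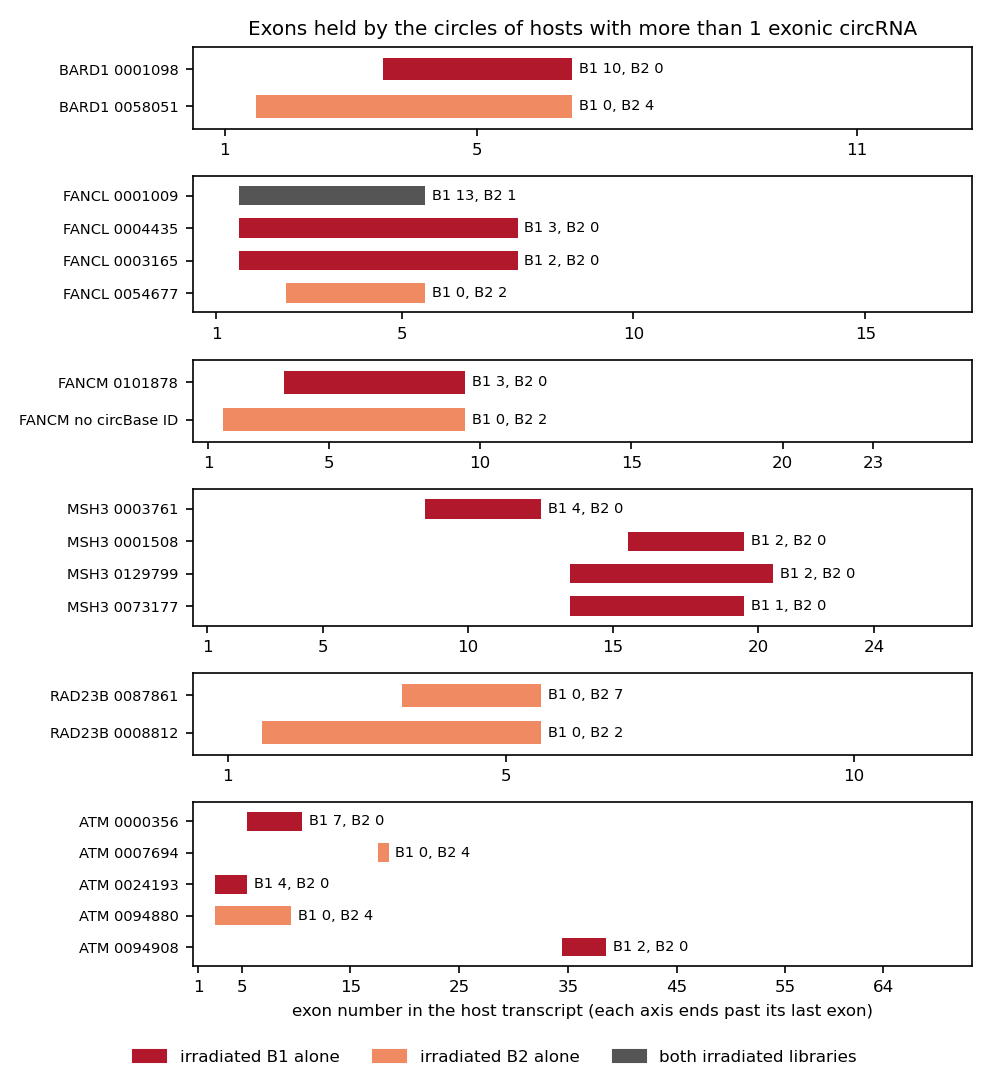
Exons held by the 19 circles of the 6 hosts with more than 1 exonic circRNA; the horizontal axis is the exon number in the host transcript and colours show the irradiated library in which the circle was read, with its reads beside the bar. Circles of BARD1, FANCM and RAD23B end at a shared exon, and FANCL 0001009 alone was read in both irradiated libraries.

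Long introns lay beside the circles. Counting each intron once, the exonic members had 50 flanking introns with a median of 5246.5 nt, from 438 nt to 46359 nt, and 41 of them were longer than 1860.5 nt, the median of all 458 introns in the same transcripts. MSH3 had the longest, 46359 nt, before exon 9, and BRIP1 the shortest, 438 nt, before exon 14. BRIP1 paired its short intron with one of 31809 nt on the other side. The circle of BABAM1 had introns of 669 and 1935 nt, so a long intron was not a feature of every member with many reads. Exonic circles outside the list were not compared for this feature.

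**Figure D5:**
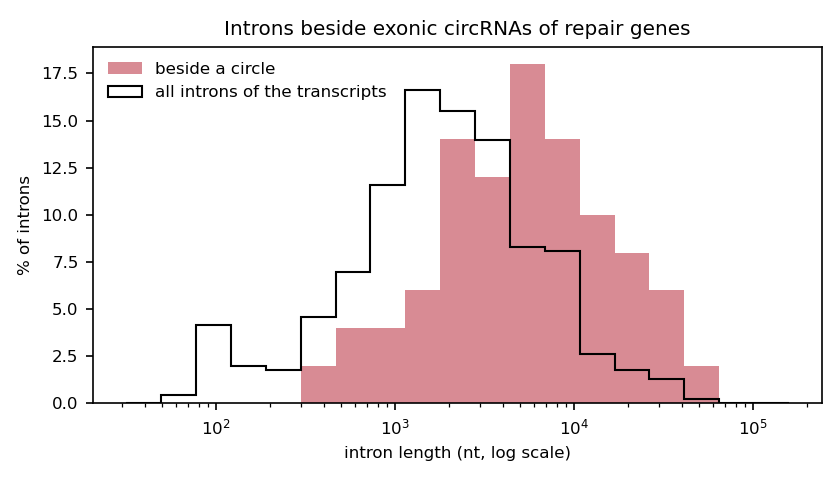
Length of the 50 introns beside exonic member circRNAs (filled) and of all 458 introns of the same host transcripts (line), as percent of introns in each bin on a logarithmic length axis. The filled distribution lies to the right, with a median of 5246.5 nt beside 1860.5 nt.

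A further list of 102 repair genes outside the members also had most of its reads in the irradiated libraries. With 17 genes and 27 circRNAs read, it had 105 and 23 reads in irradiated B1 and B2 and 0 and 5 in control A1 and A2. Its exonic reads were 77 and 21 in B1 and B2 and 0 in both controls. Over all exonic circRNAs the irradiated group had 12134 reads and the control group 7, so this direction is not particular to the list. The list was also chosen with earlier results of these data known. Of its 12 hosts tested, 1 (SPIDR, a scaffold of homologous recombination) was higher at fold change over 2 and unadjusted p under 0.05, beside the 9.44% of all tested hosts, 0 were lower, and 0 passed at adjusted p under 0.05 in edgeR. SPIDR had 24 and 4 reads in B1 and B2 and 0 in both controls. REV1 and POLI, polymerases that copy past damage, had 17 and 11 reads in B1 and none elsewhere. PMS1, a mismatch repair factor, was read in both irradiated libraries, with 3 reads in B1 and 5 in B2. TOP3A, a topoisomerase that dissolves recombination intermediates, had 8 reads in B2, and MLH3, another mismatch repair factor, had 1 and 6 reads in B1 and B2. None of these 6 genes had a read in a control library.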

How the data were processed

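Total RNA of pancreatic cancer cell exosomes was sequenced after removal of ribosomal RNA (2 irradiated and 2 control libraries). The authors deposited 1 table of raw back-splice junction read counts, made by DCC from reads mapped to hg19; the submitters' processing notes list CASAVA 1.8, cutadapt 1.9.3, STAR 2.5.1b and edgeR, and the circRNAs were annotated by category and circBase number. Of its 12571 circRNAs (1 more line is emptied), 3166 lack reads in the 4 libraries. The deposited predicted sequence length, in nt, was taken as given. 4 columns of values (named A3 and B3) that match no sample, and the log2 columns of the 4 samples, were not used. For the irradiated library B2, the number of circRNAs in its column (1861) differs from the number the study lists under that name, so the study's B2 may be column B3, and every value given for B2 may belong to another library than the label names. This was not settled.

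Members and gene lists were chosen with earlier results of these data known. The text names every member with reads, each with its values, and the 6 further genes with the most reads (MLH3 shares its total with other genes of the list). The end sequences of 1 control circle are not reported here. Counts were tested as deposited with edgeR 4.0.16 in R 4.3.3: the quasi-likelihood F test in its older form, TMM scaling, features with at least 5 reads, Benjamini-Hochberg adjustment over all features, for circRNAs and for host genes. DESeq2 1.42.0 (size factors from positive counts) was an alternative. TMM factors ran from 0.325 (B1) to 2.30 (A1) for circRNAs. The fitting step was tested on simulated data with many more reads per host than here, which does not show how it performs at this depth. Exons came from GENCODE 44 mapped to GRCh37, in the transcript whose spliced length equalled the predicted length. Folds against 0 used a floor of 3 counts over the group. Totals of 5756 to 15150 junction reads limit the precision.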

Additional observations from a re-analysis of the deposited data

Results flagged for a closer look

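The choice of members leaves out antisense circRNAs, and at 3 repair genes these had reads in the irradiated group and none in the control group. Of the 7 antisense circRNAs with a read at listed genes, the other 4 (at BRCA1, BARD1, NHEJ1 and SHPRH) had 3 reads each in a control library and none in the irradiated group. At RAD50, a subunit of the complex that senses broken ends, an antisense circle had 9 reads, all in B1. Its ends are annotated exon ends of RAD50 on the other strand, where the AG and GT bases also lie. At BLM, a helicase of homologous recombination, an antisense circle had 5 reads in B1, and at RNF168, a ubiquitin ligase at breaks, one had 2 reads in B1. The RNF168 circle also ended at exon ends of the other strand, and the BLM circle did not. Of all 1782 nuclear antisense circRNAs with a read, 239 (13.4%) had both ends at exon ends of the other strand, and of these 153 were read in irradiated B1 and 92 in irradiated B2, but 0 in control A1 and 0 in control A2.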

How the results depend on the processing

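With few reads per circle, the calls depended on the processing. No member circRNA was called at fold change over 2 and unadjusted p under 0.05, but 1 was with at least 10 reads (43.0% of all circRNAs then tested were called higher), 2 with edgeR's likelihood ratio test (8.12% of all) and 1 with the newer form of the quasi-likelihood test (7.46% of all), beside 3.53% of all as reported. Leaving out 1 library at a time gave 0 to 4 such circRNAs (1 without B1, 4 without B2), and 0 to 3 at adjusted p (1 without B1, 3 without B2). The 3 host calls, beside 9.44% of all hosts, became 4 with the likelihood ratio test, which added RAD23B (180 of all 1504 hosts were then called higher). They became 1 without scaling factors (3.86% of all hosts then tested) and 1 with exonic circRNAs alone (5.73%). They became 0 with relative log expression scaling in edgeR in place of TMM (0.532% of all hosts then tested). They also became 0 with mapped reads as library sizes (0.997%). The DESeq2 Wald test (0.598%) and circBase circRNAs alone (4.06%) also gave 0. The 3 host calls did not hold with any 1 library left out, where calls were also rarer among all hosts. A lone library is there assumed to vary like the other group. At adjusted p, 2 hosts were called with at least 10 reads (21.8% of all hosts then tested) and 0 in the other settings run. The fitted log2 fold change of FANCC was 0.80 and ran from -0.12 (without A2) to 1.24 (without B1) when 1 library was left out. The share of junction reads differed by 0.625 percentage points between the groups, and by 0.736 over nuclear exonic, intronic and sense overlapping reads. Over exonic reads alone the value was 1.30, but with 3 and 4 exonic reads in the control libraries it is no measured difference. The exonic share kept its direction and its size within the spread in all settings. filterByExpr left no member to test. The cause of these changes was not tested.

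With the replicate number as a replicate block, 0 member circRNAs and 0 member hosts were called. Of all tested circRNAs 3.73% were called higher there, and of all tested hosts 0.00%. Deviations of same-numbered libraries correlated at 0.0112 over circRNAs and 0.0132 over hosts. Of all 3726 hosts 2979 were read in 1 library alone, so these correlations cannot show whether same-numbered libraries were paired.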
